A study of Homo sapiens with 4 samples.

Results

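Open chromatin at the genes of the YAP, TEAD and Hippo module was described in A375 cells, an established human melanoma line with an activating BRAF mutation, after treatment with a medium-chain fatty acid. The 10 genes were YAP1, WWTR1, TEAD1, TEAD2, TEAD3, TEAD4, CCN1, CCN2, AMOTL2 and AJUBA, and CCN1 and CCN2 are also known as CYR61 and CTGF. Every listed ATAC-seq region that overlapped the RefSeq span of one of these genes, extended by 10 kb on both sides, was taken, which gave 103 of the 125986 regions of the authors' deposited table. ATAC-seq uses the transposase Tn5 to insert adapters into accessible DNA, so reads pile up where chromatin is open. The treated cells received 1 mM octanoate for 48 h and the control cells received its vehicle, isopropanol, with 2 libraries in each group. Both groups were grown in DMEM with fetal bovine serum, and the labels do not say whether the libraries of a group came from separate cultures, so the p-values measure only the spread between these libraries. The comparison asked where accessibility differs after octanoate.

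The Hippo pathway is a kinase cascade in which the MST and LATS kinases phosphorylate the coactivators YAP1 and WWTR1 (the protein TAZ) and keep them out of the nucleus. YAP1 and WWTR1 do not bind DNA themselves, and they reach their target genes through the 4 TEAD transcription factors. The secreted matrix proteins CCN1 and CCN2 are among the best known targets, AMOTL2 is both a target and an angiomotin family protein that binds YAP1, and AJUBA is a LIM domain scaffold that restrains LATS. In melanoma, YAP and TAZ activity is known mainly from undifferentiated, invasive cell states.

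The sequences upstream of transcription starts show which of these genes carry the letters that TEAD factors prefer. RefSeq windows of 300 bases (GRCh38.p14, 250 bases before to 50 after a start) matched 7 of the 10 genes with 11 starts in all, and TEAD1, TEAD4 and CCN1 had no entry. The TEAD motif GGAATG, searched on both strands, was found in 4 of the 11 windows, 1 each of CCN2, YAP1, AMOTL2 and AJUBA, and in 14.0% of all 35116 windows. The CCN2 window held 3 matches, a number reached by 0.128% of all windows. Stretches with the matches in capitals are printed 5′ to 3′ on the strand of the gene, ending before its start; AMOTL2 carries the reverse complement CATTCC.
CCN2 (chr6:131951433-131951552, minus strand, 180 to 61 bases before the start): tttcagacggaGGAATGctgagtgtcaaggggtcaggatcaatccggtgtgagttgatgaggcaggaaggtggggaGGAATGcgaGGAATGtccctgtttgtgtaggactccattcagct
YAP1 (chr11:102110267-102110326, plus strand, 180 to 121 bases before the start): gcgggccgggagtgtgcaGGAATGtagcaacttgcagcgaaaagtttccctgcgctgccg
AMOTL2 (chr3:134374488-134374547, minus strand, 100 to 41 bases before its inner start): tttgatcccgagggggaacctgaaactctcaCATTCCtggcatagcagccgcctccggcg
AJUBA (chr14:22976873-22976932, minus strand, 90 to 31 bases before its inner start): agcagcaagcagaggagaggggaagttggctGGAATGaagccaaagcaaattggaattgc
The windows of CCN2, YAP1 and the inner AMOTL2 start lay wholly inside a listed open region, whereas no region overlapped the window of the inner AJUBA start. The AP-1 motif TGANTCA was in 0 of the 11 windows and in 7.71% of all windows, and the comparison motif GGGCGG was in 7 of the 11 and in 45.0% of all windows. None of the TEAD motif matches overlapped a match of the other motifs. A match of letters is a description of the sequence and shows no binding.

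None of the 103 regions passed an adjusted p under 0.05 in the authors' deposited table (DESeq2, Benjamini-Hochberg). The authors' adjustment covered 11185 regions, those whose mean reached 63.8 normalized reads, called tested regions here, and 16 of the 103 were among them. Of all tested regions 1.02% were called, and all 114 calls were higher after octanoate. At an unadjusted p under 0.05, 2 of the 103 regions passed in the authors' deposited table, both higher after octanoate (1 in TEAD1 and 1 at TEAD4). Of all regions 3.76% passed this limit, and 3.58% passed it with a higher value. The smallest adjusted p among the 16 tested regions was 0.224, at TEAD4.

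The whole distribution of fold changes was shifted upward, so the medians and some of the single regions are also read against that shift. The median log2 fold change (octanoate over vehicle) was 0.23 over all 125985 nuclear regions and 0.19 over the tested ones in the authors' deposited table. The 103 regions had a median of 0.13, between -1.15 and 1.26, and 63.1% of them were above 0 against 72.1% of all nuclear regions. Of the 16 tested regions of the 10 genes 62.5% were above 0, against 85.7% of all tested nuclear regions. After the tested median was subtracted from every fold change, 3 of the 103 regions had an unadjusted p under 0.05, all lower than that median (2 in WWTR1 and 1 beside CCN1). Of all regions 1.68% passed in this way, and 0.604% passed on the lower side. These are descriptions: regions of 1 gene are not replicates, and no test of the list was made.

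**Figure D1:**
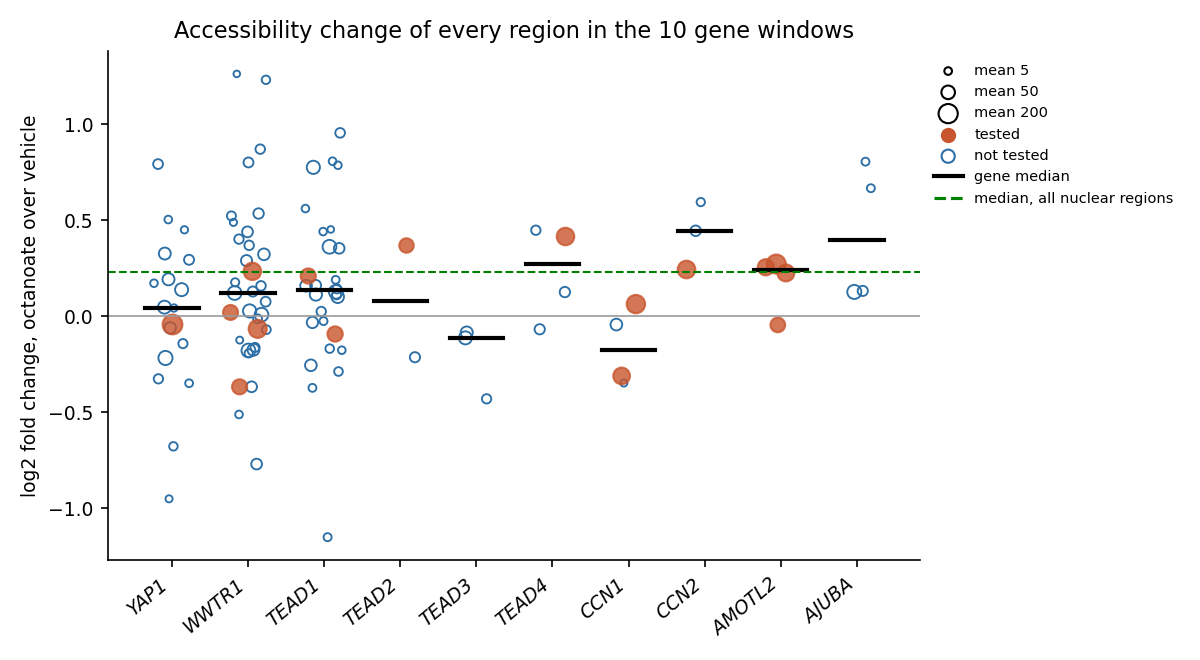
Log2 fold change (octanoate over vehicle) of each of the 103 regions, by gene; each point is 1 region with its area growing with the mean normalized read count, filled points are tested regions, black bars are gene medians and the dashed line is the median of all nuclear regions, 0.23. Gene medians run from -0.18 at CCN1 to 0.45 at CCN2 (0.063 and 0.24 without the extension), and tested regions span -0.37 to 0.42 where untested ones span -1.15 to 1.26.

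No value for a single library stands in the table, so group means were derived from the deposited mean over the 4 libraries and the deposited fold change, as the pair of values with that mean and that ratio. They are called implied means and carry no spread of their own. For single regions, the fold changes with their errors and p-values are those of the authors' deposited table throughout, except values given relative to the tested median. The error of each difference is the authors' standard error, from which 95% intervals were computed.

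The coactivators held 51 of the 103 regions. YAP1 (chr11:102110447-102233424) had 18 regions whose median log2 fold change was 0.045, and 13 of the 18 lay below the median of all nuclear regions. The YAP1 median was 0.14 over the regions whose mean reached the median of all nuclear regions, and 0.14 with an extension of 50 kb. With no extension it was -5.5e-05. Its start region, chr11:102109572-102112803, was the strongest of all 103 with a mean of 225 normalized reads, above 99.6% of nuclear regions, and it also covers the start of the divergent noncoding gene YAP1-DT. The implied means of the YAP1 start were 229 for vehicle and 222 for octanoate. Its deposited log2 fold change was -0.043 (standard error 0.14, 95% interval -0.32 to 0.24, adjusted p 0.918 by DESeq2), so the groups differed by less than their error, and the interval includes the tested median of 0.19. The other 17 YAP1 regions were below the tested limit. The strongest of them, in the gene body at chr11:102196399-102198193 with a mean of 58.7, had implied means of 63.1 for vehicle and 54.3 for octanoate (log2 fold change -0.22, standard error 0.27, authors' deposited table). The smallest p of the locus, 0.171 as the authors' deposited table lists it, was that of a weak region in the flank at chr11:102236984-102237417, with a mean of 13.6 and a log2 fold change of 0.79 (95% interval -0.34 to 1.93).

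WWTR1 (chr3:149517235-149724788) had the most regions, 33, and their median log2 fold change was 0.12. Its RefSeq windows place starts at 149703273 and 149658025, 45.2 kb apart on the minus strand. The region over the inner start, chr3:149657386-149659210, had a mean of 157 normalized reads and 86.2 per kb, and it includes the start of the antisense noncoding gene WWTR1-AS1. The region over the outer start, chr3:149703038-149703364, had a mean of 11.9 and 36.5 per kb, so the inner start had 2.36 times the signal per kb. The window of the inner start holds no match of the TEAD letters on either strand, and a stretch of it is printed for comparison with the sequences above.
WWTR1 (chr3:149658086-149658145, minus strand, 120 to 61 bases before the inner start): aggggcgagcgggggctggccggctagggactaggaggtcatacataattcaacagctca
At the inner start the implied means were 161 for vehicle and 154 for octanoate, and the log2 fold change was -0.066 (standard error 0.17, adjusted p 0.888, DESeq2, authors' deposited table). The strongest region of the WWTR1 body, chr3:149575406-149578361, had implied means of 125 and 147, in the same order, and the log2 fold change was 0.23 (standard error 0.19, adjusted p 0.585, DESeq2, authors' deposited table). Another body region at chr3:149553621-149555253 pointed the other way, with implied means of 86.6 for vehicle and 67.1 for octanoate, a log2 difference of -0.37 and an adjusted p of 0.465 from DESeq2 in the deposited table. The fourth tested WWTR1 region, chr3:149581221-149582338, is listed with 0.020 by the authors' deposited table. Relative to the tested median the region at chr3:149553621-149555253 was at -0.55, with an unadjusted p of 0.0192 and an adjusted p of 0.991. The tested regions of this gene thus pointed in both directions, and the 95% intervals of all 4 include 0, while the interval of the region at -0.37 excludes the tested median. The smallest unadjusted p at WWTR1 was 0.106, for an untested region at chr3:149542289-149543027 with a log2 fold change of -0.77 (95% interval -1.71 to 0.16).

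TEAD1 (chr11:12674421-12944737), the longest of the 10 genes at 270 kb, had 28 regions whose median log2 fold change was 0.14. It encodes one of the 4 DNA-binding partners, which share the TEA domain that recognises the motif above. The region over the lower-coordinate end of its span, chr11:12673838-12675522, had implied means of 84.3 for vehicle and 79.1 for octanoate (log2 fold change -0.093, standard error 0.23, adjusted p 0.885, DESeq2, authors' deposited table). The next tested region, chr11:12692348-12694410, had implied means of 73.1 and 84.5 (log2 fold change 0.21, adjusted p 0.712, DESeq2, authors' deposited table). About 140.0 kb into the gene, chr11:12813684-12815203 had implied means of 33.2 for vehicle and 56.8 for octanoate, 1.71-fold higher, with a log2 fold change of 0.78 (95% interval 0.15 to 1.41). Its unadjusted p was 0.0156 in the authors' deposited table, and with a mean of 45.0 it was not tested for an adjusted p. Relative to the tested median its log2 fold change was 0.59, with an unadjusted p of 0.0662.

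**Figure D2:**
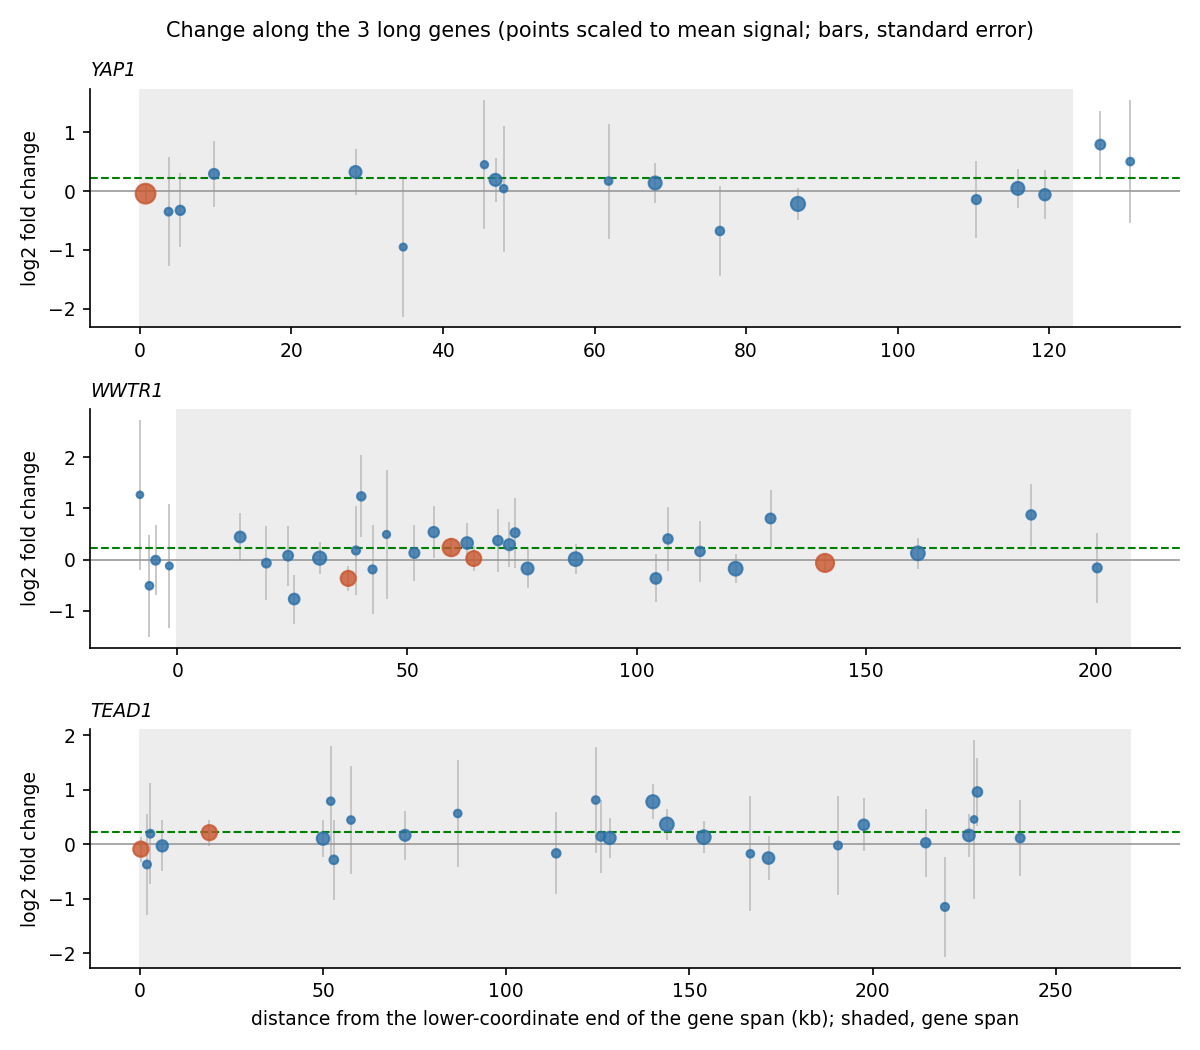
Log2 fold change of the regions along YAP1, WWTR1 and TEAD1 against the distance in kb from the lower-coordinate end of the gene span (shaded); point area grows with the mean normalized read count, orange points are tested regions, blue points are untested ones, bars are the authors' standard errors, and the dashed line is the median of all nuclear regions, 0.23. The 79 regions, 50 above 0 and 29 below, scatter on both sides of 0 along all 3 genes.

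The other TEAD genes had shorter spans and few open regions. TEAD4 (chr12:2959397-3040676) had 4 regions, and the one over the lower-coordinate end of its span, chr12:2958273-2960561, also covers the start of a noncoding gene, LOC124902859. Its implied means were 120.1 for vehicle and 160 for octanoate, 1.34-fold higher, and the log2 fold change was 0.42 (standard error 0.18, 95% interval 0.070 to 0.77). The unadjusted p was 0.0187 and the adjusted p 0.224 in the authors' deposited table, so it was not called. Relative to the tested median the difference was 0.23, with an unadjusted p of 0.193. The remaining 3 TEAD4 regions had means of 11.5 to 17.0 and log2 fold changes of 0.45, 0.13 and -0.068 in the authors' deposited table.

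TEAD2 (chr19:49340595-49362416) had 2 regions. The one that overlaps the windows of both annotated starts, chr19:49361552-49362503, was weak, with 16.6 normalized reads per kb, at percentile 9.49 of nuclear regions on that scale. Its implied means were 17.0 for vehicle and 14.7 for octanoate (log2 fold change -0.21, standard error 0.56, authors' deposited table). It also overlaps the span of DKKL1. The stronger one, chr19:49363304-49364083, had implied means of 56.3 and 72.7 (log2 fold change 0.37, adjusted p 0.512, DESeq2, authors' deposited table) and covers the start of the neighbouring gene DKKL1, so its signal cannot be assigned to 1 of the genes. TEAD3 (chr6:35473597-35497079) had 3 regions, none tested and all listed below 0. Its start region, chr6:35496238-35498207, had implied means of 44.3 for vehicle and 40.9 for octanoate (log2 fold change -0.11, standard error 0.32, authors' deposited table). That region also overlaps the span of TULP1 and covers the start of LOC124901309. A TEAD3 flank region at chr6:35468001-35468814, with a log2 fold change of -0.085, covers the start of the ribosomal protein gene RPL10A.

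The target genes CCN2, CCN1 and AMOTL2 had 11 regions, 7 of them tested. CCN2 (chr6:131948176-131951372) had 3 regions, all above 0, and their median log2 fold change was 0.45, the value of a weak flank region; without the extension only the main region is left, at 0.24. Its main region, chr6:131948732-131952588, holds the start, most of the short gene and the 3 motif matches printed above. The implied means there were 132 for vehicle and 156 for octanoate, and the log2 fold change was 0.24 (standard error 0.17, 95% interval -0.098 to 0.59, adjusted p 0.525, DESeq2, authors' deposited table). That value lies close to the tested median of 0.19, and relative to it the difference was 0.058 (unadjusted p 0.740). The other CCN2 regions were weak, with means of 18.2 and 7.01 and log2 fold changes of 0.45 and 0.60 in the authors' deposited table.

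CCN1 (chr1:85580761-85583950) had 4 regions whose median log2 fold change was -0.18, the lowest of the 10 genes. The region over the gene, chr1:85579540-85583165, had implied means of 166 for vehicle and 174 for octanoate (log2 fold change 0.063, standard error 0.16, adjusted p 0.890, DESeq2, authors' deposited table). Relative to the tested median it was at -0.12. A separate flank region, chr1:85576284-85578931, had implied means of 128 and 103, in the same order, and the log2 fold change was -0.31 (standard error 0.20, adjusted p 0.462, DESeq2, authors' deposited table). Relative to the tested median this flank region was at -0.50, with an unadjusted p of 0.0124 and an adjusted p of 0.931. It covers the start of the neighbouring gene DDAH1, an enzyme that breaks down methylated arginine. Without the extension of 10 kb only the region over the gene is left, at 0.063.

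AMOTL2 (chr3:134355345-134375417) was the only one of the 10 genes whose regions were all tested. Its start region, chr3:134373241-134375643, covers both annotated starts and had implied means of 179 for vehicle and 216 for octanoate, 1.21-fold higher. The log2 fold change was 0.27 (standard error 0.15, 95% interval -0.025 to 0.57), and the authors' deposited table gives an unadjusted p of 0.0725 and an adjusted p of 0.387. A pair of body regions, chr3:134366671-134367764 and chr3:134363823-134364798, had the highest signal per kb among the 16 tested regions, at 113 and 105 normalized reads per kb. Their log2 fold changes were 0.23 and 0.26 in the authors' deposited table, with adjusted p-values of 0.617 and 0.599. The last AMOTL2 region, chr3:134357752-134358830, was at -0.045. The 3 strongest AMOTL2 regions thus lay slightly above the tested median of 0.19, by less than their standard errors. AJUBA (chr14:22971177-22982551) had 4 regions, none tested and all above 0, but 2 of the 4 lay below the median of all nuclear regions. Its start region, chr14:22980315-22983097, had implied means of 55.3 for vehicle and 60.3 for octanoate (log2 fold change 0.13, standard error 0.27, authors' deposited table), and the other 3 had means of 5.83 to 15.8 in the authors' deposited table. Relative to the tested median the AJUBA start region was at -0.060.

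**Figure D3:**
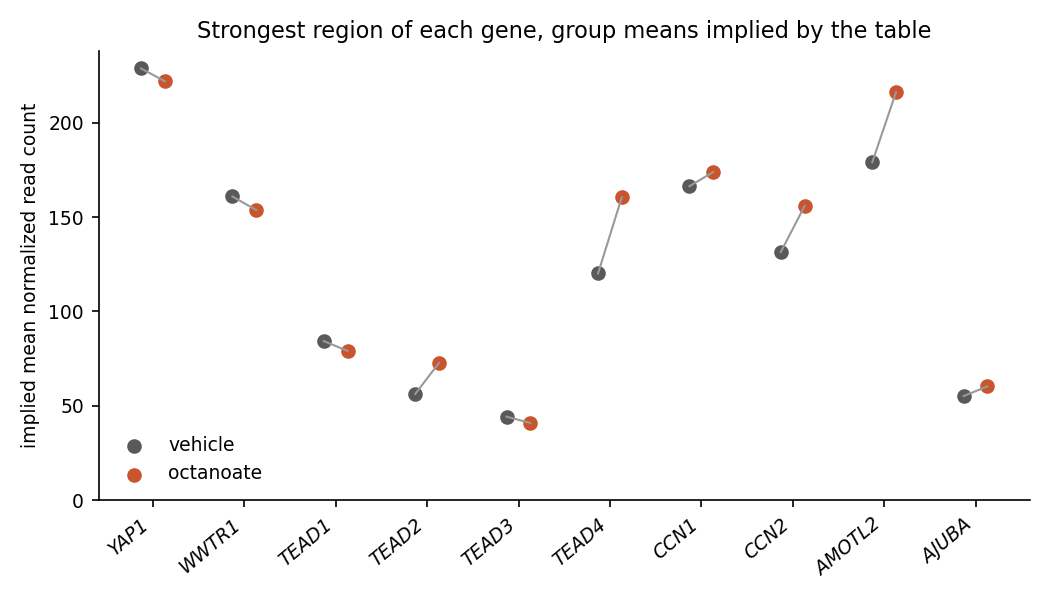
Implied mean normalized read count of vehicle (grey) and octanoate (orange) at the strongest region of each of the 10 genes, joined by a line; no error is drawn because the table holds no value per library. The largest gaps are at TEAD4 (120.1 and 160) and AMOTL2 (179 and 216), and YAP1, WWTR1, TEAD1 and TEAD3 are slightly lower after octanoate; the TEAD2 point is the region over the DKKL1 start.

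At the 8 regions over annotated starts of these genes, the median log2 fold change was 0.042, with 4 above 0 and 4 below. Over the 11091 start regions of all protein-coding genes it was 0.14 in the authors' deposited table. With every region within 1 kb of an annotated start taken instead, the median of these genes was 0.13. With the 3 regions over span ends of TEAD1, TEAD4 and CCN1 added to the 8, it was 0.063. The remaining 92 regions of the 10 windows had a median of 0.13, where other nuclear regions had 0.25. The 2 sets differ in kind. The 92 include regions over starts of other genes (DKKL1, DDAH1 and RPL10A), whereas the other nuclear regions leave out the annotated starts of every protein-coding gene. Per kb of region, the order of signal at starts and span ends ran from WWTR1 (86.2 normalized reads per kb, inner start) through AMOTL2 (82.2), YAP1 (69.7), TEAD4 (61.3), TEAD1 (48.5), CCN1 (46.9), CCN2 (37.2), the outer WWTR1 start (36.5), TEAD3 (21.6) and AJUBA (20.8) to TEAD2 (16.6). No spread between libraries is known for these levels, so the order of neighbours cannot be judged.

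The precision of the data limits what could have been called. Among the 16 tested regions, the log2 fold change needed to reach the smallest called statistic was 0.50 at the YAP1 start and 0.90 at the TEAD2 region over DKKL1. The 95% intervals of all 16 lay between -0.83 and 0.88, so a halving or a doubling lies outside each of them. Of the 103 intervals, 101 included 0 and 100 included the tested median. For the 87 untested regions the median deposited standard error was 0.61, and at that error a log2 fold change of 1.20, more than a doubling, is needed for an unadjusted p of 0.05.

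**Figure D4:**
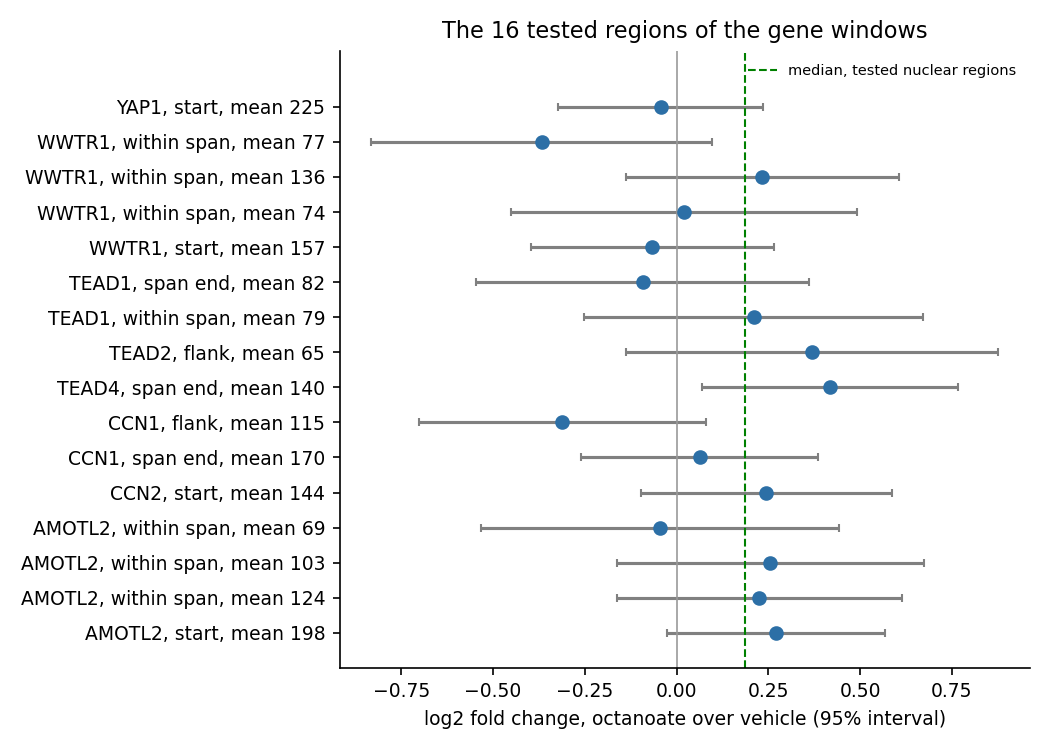
Log2 fold change (octanoate over vehicle) of the 16 tested regions with 95% intervals from the authors' standard errors, labelled by gene, position and mean normalized read count; the dashed line is the median of all tested nuclear regions, 0.19. The TEAD4 interval alone excludes 0, and the intervals of 14 of the 16 regions include the dashed line, the exceptions being the CCN1 flank region and the WWTR1 region with a mean of 76.8.

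The wider Hippo pathway was described with 41 further genes and the same window rule. Among 20 upstream kinases and adaptors, which include the MST kinases STK3 and STK4, LATS1, LATS2, the scaffold NF2 and the angiomotins, 0 of 35 tested regions passed an adjusted p under 0.05 (DESeq2), and 7 had an unadjusted p under 0.05, all higher. In the authors' deposited table that limit was reached by 14.9% of all tested regions, and by 14.8% with a higher value. The 205 regions of this list had a median log2 fold change of 0.19. The 4 VGLL genes, coregulators that also bind TEAD factors, had 0 of 7 tested regions past the threshold and 2 at an unadjusted p under 0.05 (DESeq2), both higher, with a median of 0.16 over 23 regions. Of 29 tested regions at 19 further YAP and TAZ target genes, 0 passed and 3 had an unadjusted p under 0.05 (DESeq2), all higher, and the list's 212 regions had a median of 0.15. Over all 212 regions of the further targets, untested ones included, 11 had an unadjusted p under 0.05 in the authors' deposited table, 8 higher and 3 lower, where 3.76% of all regions passed and 3.58% passed with a higher value. The 3 lower ones, named after their values were seen, were 1 region in DOCK5 (log2 fold change -1.21) and 2 in TGFB2, which encodes a transforming growth factor beta ligand (-0.94 and -0.84, authors' deposited table). All 3 were untested, with means of 23.2, 30.2 and 25.5 normalized reads and standard errors of 0.44, 0.38 and 0.42, in that order. Of all 125985 nuclear regions, 225 had an unadjusted p under 0.05 (DESeq2) with a lower value. LATS2 and PTPN14 were in both of the longer lists. Over all 41 genes, 11 of 66 tested regions had an unadjusted p under 0.05 in the authors' deposited table, all higher, and of all 417 regions 20 did, 17 higher and 3 lower, against the same 3.76% and 3.58% of all regions.

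The 3 smallest p-values among these further genes lay at AMOTL1, VGLL4 and TAOK3. A region inside AMOTL1, the angiomotin family relative of AMOTL2, at chr11:94801778-94803182 had implied means of 46.9 for vehicle and 86.4 for octanoate, with a log2 difference of 0.88 ± 0.26 (standard error) and an adjusted p of 0.0556 from DESeq2 in the deposited table. At VGLL4, a region over an annotated start, chr3:11567965-11569254, had implied means of 98.3 and 149, with a log2 difference of 0.60 and an adjusted p of 0.0758 from DESeq2 in the deposited table; it also overlaps the span of ATG7. A region inside TAOK3, a kinase upstream of the MST and LATS kinases, at chr12:118371229-118373498 had implied means of 174 and 234, with a log2 difference of 0.43 and an adjusted p of 0.111 from DESeq2 in the deposited table. Each was higher after octanoate in the deposited table and none passed the threshold. Relative to the tested median their unadjusted p-values were 0.00771, 0.0289 and 0.102. The Benjamini-Hochberg adjusted p-values after that centring were 0.802, 0.999995 and 0.999995.

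**Figure D5:**
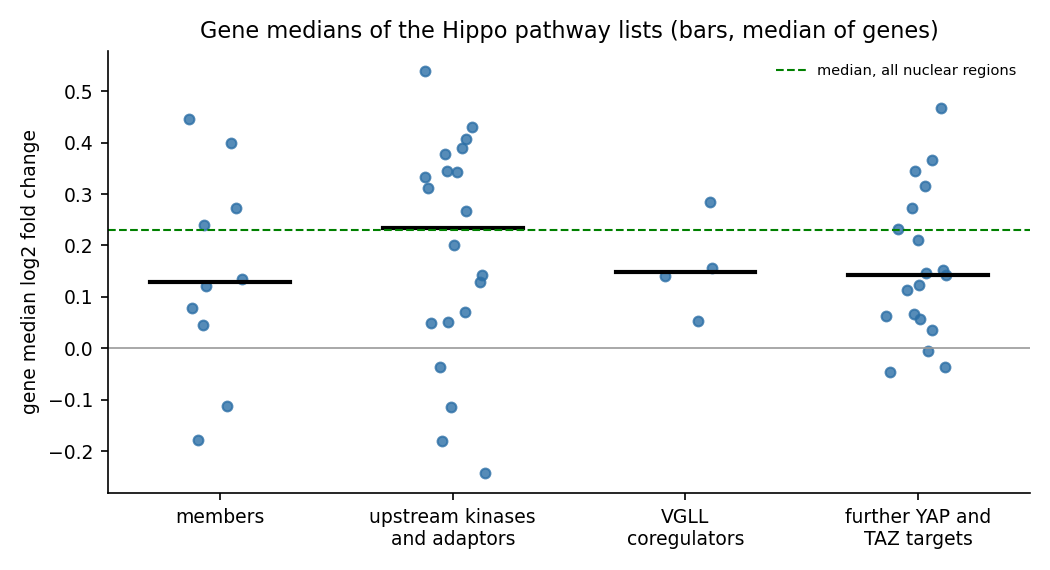
Median log2 fold change of each gene's regions for the 10 genes described here, the 20 upstream kinases and adaptors, the 4 VGLL coregulators and the 19 further YAP and TAZ targets; each point is 1 gene, bars are medians over genes and the dashed line is the median of all nuclear regions, 0.23. The bars stand at 0.13, 0.23, 0.15 and 0.14, and 6 of the 10 genes and 25 of the 41 distinct further genes lie below the dashed line, against 57.3% of all protein-coding gene windows with a region. Over all those windows the median of the gene medians was 0.19, with quartiles of 0.054 and 0.34.

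The labelled cell type was checked at lineage genes. Of the 4 melanocyte lineage genes with a start in the promoter table, MITF had a start region with a mean of 168 normalized reads and DCT one with a mean of 30.0. MLANA and TYR had no start region listed, and their strongest window regions had means of 31.0 and 68.9. For SOX10 and PMEL, without an entry, the strongest window regions had means of 50.6 and 173. The blood gene PTPRC had no region at its start and a strongest window region with a mean of 93.3, and for CD3E, EPCAM, KRT14, PECAM1 and CDH5 no start was in the table and the strongest window regions had means of 16.5 to 70.1 normalized reads. Accessibility near a gene does not measure its expression, so these values describe the chromatin only.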

How the data were processed

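The 4 ATAC-seq libraries were sequenced to an average of 40000000 to 50000000 paired reads each, per the labels' protocols. Trim Galore, cutadapt, FastQC, Bowtie2, Picard, MACS2, featureCounts, DESeq2 and bedtools 2.29.1 and the build hg38 are named in the submitters' processing notes. Settings, a Tn5 offset correction and how regions were merged are not given in the sources used here. The deposited table holds per region, per the file headers, a signal (normalized reads averaged over the 4 libraries), a log2 fold change of octanoate over vehicle, its standard error and Wald statistic (deposited values with no fixed range, handled as a score) and a p-value with its adjusted p-value. It holds 0 columns per library, so no depth per library, counting interval, mean ± SD or count test is given. The deposited adjusted p equalled Benjamini-Hochberg over 11185 regions, those whose mean reached 63.8, and it is listed as 1 elsewhere, which was treated as not tested.

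Starts were shifted by 1 so that coordinates count from 1. Gene spans came from the RefSeq table of GRCh38.p14, and all 10 symbols and all 41 further pathway genes matched. A start region overlaps a RefSeq promoter window. Normal 95% intervals and implied group means were computed with Python 3.11.15, pandas 2.3.3, numpy 2.4.6 and scipy 1.17.1. The centring with its adjusted calls was tested on simulated fold changes. The window overlap and the adjustment were checked against a second computation on the deposited regions and p-values. Named regions were, per gene, the strongest at a start or span end, the strongest elsewhere and the one of smallest p, with every tested region allowed. For the further genes they were the 3 regions of smallest p, and the DOCK5 and TGFB2 regions were added after their values were seen. The members and lists were chosen with earlier results of these data known. Alternatives covered the threshold, the adjustment, the extension, the signal filter, the centring and leaving out genes.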

Additional observations from a re-analysis of the deposited data

How the results depend on the processing

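For the 10 genes, the count of 0 regions past the adjusted p stayed 0 at thresholds of 0.1 and 0.01, after Benjamini-Hochberg over all regions, after both centrings and with extensions of 0, 5, 25 and 50 kb (88, 98, 117 and 151 regions). The smallest adjusted p was 0.224 (DESeq2), so neither threshold could give a call. The extensions of 0 and 5 kb could not either, because their regions are among the 103. The 2 regions at an unadjusted p under 0.05 became 3 after centring on either median, all lower than it. The median of 0.13 over the 103 regions ran from 0.12 to 0.13 when each gene was left out and was 0.13 at every extension. A value was taken to have moved when it changed by more than the standard error of the mean over its regions, treated as independent (0.066 for all 103). By that limit, subtracting the median of all nuclear regions moved the overall median to -0.10, and subtracting the tested median moved it to -0.060. The first centring also moved the gene medians of YAP1 to -0.18, WWTR1 to -0.11, TEAD1 to -0.094 and AMOTL2 to 0.011, and, by less than the standard errors of those genes, it took those of TEAD2 to -0.15, TEAD3 to -0.34, TEAD4 to 0.043, CCN1 to -0.41, CCN2 to 0.22 and AJUBA to 0.17. These changes follow from subtracting 1 constant. With no extension the gene medians of CCN1 (0.063), TEAD2 (-0.21) and YAP1 (-5.5e-05) changed sign, and with 50 kb that of CCN1 did (0.018). Of the extensions and the signal filter, other changes of a gene median by over 1.5 times were, with no extension, CCN2 (0.24), AJUBA (0.13), TEAD3 (-0.27) and TEAD4 (0.42), with 50 kb, YAP1 (0.14) and AJUBA (0.13), and with means at or above the median of all nuclear regions, YAP1 (0.14), TEAD4 (0.13), CCN1 (-0.043) and AJUBA (0.13). With regions within 1 kb of a start, the median at starts was 0.13 in place of 0.042.

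No paired analysis was possible because single libraries have no columns in the table. Leaving out a replicate and the replicate block were not run for the same reason. The centrings of the counts and of single regions, except the planned centring on the tested median for adjusted calls, and the added span ends were chosen after the data were seen.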
